A study of Rattus norvegicus with 9 samples.

Results

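Caveolins and cavins are the structural proteins of caveolae, the flask-shaped, cholesterol-rich pits of the plasma membrane. The genes described are Cav1 and Cav2, which encode caveolins, and Cavin1, Cavin2 and Cavin3, which encode cavins and are Ptrf, Sdpr and Prkcdbp in older annotations. Every probe set whose platform annotation named exactly 1 of these genes was taken. That gave 9 of the 31042 probe sets tested, for 4 of the 5 genes: 3 for Cav1, 4 for Cav2, 1 for Cavin2 and 1 for Cavin3. The genes measured were 4 of 14213. No probe set was listed under Cavin1, Ptrf or its gene identifier, so Cavin1 is not analysed here.

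RNA was profiled on 9 Affymetrix arrays, 3 in each of 3 groups of primary rat Schwann cells from sciatic nerve. The NF1 RNAi + U0126 group received oligonucleotides against Nf1 together with U0126 (UO126 in the labels), an inhibitor of the kinase MEK. The NF1 RNAi group received the oligonucleotides against Nf1 without the inhibitor, and the Control RNAi group received scrambled oligonucleotides without it. Transfection was transient in all groups and total RNA was taken 48 h later. The labels call the 3 replicates of each group independent biological replicates. Arrays with the same replicate number deviated together, most clearly those numbered 1. Scrambled-oligonucleotide cells given U0126 were not analysed here, so effects of the inhibitor that do and do not depend on Nf1 cannot be told apart.

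Caveolin-1 is the main caveolin outside muscle, and caveolin-2 forms oligomers with it and depends on it to leave the Golgi. Cavins are peripheral coat proteins that assemble on caveolin-rich membrane: cavin-1 is required for caveolae to form, cavin-2 promotes membrane curvature, and cavin-3 binds protein kinase C delta and affects caveola trafficking. In rat Schwann cells, caveolin-1 has been described in connection with myelination. Neurofibromin, the product of Nf1, is a GTPase-activating protein for Ras, and MEK is a kinase downstream of Ras.

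Cav1 and Cav2 are neighbours on rat chromosome 4, in the order Tes, Cav2, Cav1 and Met, whereas Cavin3 is on chromosome 1 between Cckbr and Smpd1 and Cavin2 is on chromosome 9. The promoters of Cav1 and Cav2 are shown because all 7 probe sets of these adjacent genes were highest on the same Control RNAi array, as described below. That array also stood apart from the others of its group over all probe sets. The source of the sequences held no Cavin3 promoter, so none is shown. Each sequence is the 250 bases before the annotated gene start, on the plus strand of RefSeq's rat assembly GRCr8, and capitals mark the motifs found.
Cav1, chr4:46606288-46606537: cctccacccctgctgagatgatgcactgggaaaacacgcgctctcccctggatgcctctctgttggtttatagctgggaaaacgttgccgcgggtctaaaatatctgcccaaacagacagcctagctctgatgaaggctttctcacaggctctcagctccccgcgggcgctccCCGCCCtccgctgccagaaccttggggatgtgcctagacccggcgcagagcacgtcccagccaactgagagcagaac
Cav2, chr4:46582431-46582680: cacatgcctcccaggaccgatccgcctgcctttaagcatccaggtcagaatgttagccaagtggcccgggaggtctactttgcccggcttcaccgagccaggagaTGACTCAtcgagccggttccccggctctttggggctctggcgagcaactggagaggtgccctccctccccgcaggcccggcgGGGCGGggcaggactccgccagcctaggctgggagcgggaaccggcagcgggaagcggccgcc

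Both windows held 1 GC box (GGGCGG, searched on both strands). It lay 77 to 72 bases upstream of Cav1, read on the minus strand, and 63 to 58 bases upstream of Cav2, read on the plus strand. The Cav2 window also held 1 AP-1 site (TGANTCA), 145 to 139 bases upstream, and the Cav1 window held none. Of 33469 rat promoter windows of this length, 30.5% held a GC box and 6.34% an AP-1 site. GC content was 60.0% for Cav1 and 68.4% for Cav2, against a median of 51.2% over all windows. The letters of a TEAD site (GGAATG, in 12.1% of windows), an ETS site (CCGGAA, in 12.6%) and the CArG box (in 1.5%) were in neither window. A match is a run of letters and says nothing of a factor's binding.

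Levels are log2(intensity + 1), and a difference of 1 on this scale is close to 2-fold for all but dim probe sets. In the deposited RMA values the arrays had closely matched medians, with intensities of 94.6 to 96.7. On each array 58.0% to 58.5% of probe sets reached a log2 level of 6, used here as the border of dim signals. Both describe the arrays after processing and not before it. In every group, replicates 2 and 3 were closest to each other. The Control RNAi replicate 1 array stood apart most: its log2 values differed from those of replicates 2 and 3 with an SD of 0.31 and 0.358 over probe sets, against 0.152 between those 2 arrays. Of the Schwann cell markers, S100b, Ngfr and Sox10 were at log2 levels of at least 11.06 on all 9 arrays, while Pmp2 lay between 5.98 and 7.72 and Gfap between 7.31 and 9.68. S100b averaged a log2 level of 13.66 in NF1 RNAi + U0126, 14.04 in NF1 RNAi and 13.24 in Control RNAi. Of the 7 markers measured, S100b alone was called higher against Control RNAi (limma, adjusted p under 0.05). Pmp2 was called lower in NF1 RNAi, by a log2 difference of -0.54. In NF1 RNAi + U0126, Gfap (-1.95), Pmp2 (-1.17), Foxd3 (-0.37) and Sox10 (-0.22) were called lower. Ngfr and Erbb3 were called in neither comparison with Control RNAi.

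Nf1 was checked first as the targeted gene. Its log2 level was 5.44, 5.72 and 5.39 in NF1 RNAi + U0126, 5.39, 5.41 and 5.44 in NF1 RNAi, and 6.65, 6.59 and 6.15 in Control RNAi. Every Control RNAi array lay above all 6 arrays with oligonucleotides against Nf1. Mean intensity was 51.0% of the Control RNAi mean in NF1 RNAi + U0126 and 47.2% in NF1 RNAi. Nf1 had 1 probe set, and all 6 arrays with oligonucleotides against Nf1 were below the border of dim signals. The size of its fall is therefore uncertain. Nf1 fell by 1.05 ± 0.13 (SE) on the log2 scale in NF1 RNAi against Control RNAi (limma, adjusted p = 0.000695), and NF1 RNAi + U0126 differed from NF1 RNAi by 0.10 ± 0.13 (adjusted p = 0.694).

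Cavin3 was the bright member of the family and the only one with a large difference between groups. Its log2 level was 8.61, 9.18 and 8.75 in NF1 RNAi + U0126, 7.70, 8.82 and 8.54 in NF1 RNAi, and 11.38, 11.75 and 11.82 in Control RNAi. All 6 arrays with oligonucleotides against Nf1 lay more than 2 log2 units below the lowest Control RNAi array. On the intensity scale, Cavin3 averaged 466.8 ± 99.8 in NF1 RNAi + U0126, 342.9 ± 124.5 in NF1 RNAi and 3245 ± 515.2 in Control RNAi (SD, n = 3 each). NF1 RNAi + U0126 therefore had 14.4% of the Control RNAi mean and NF1 RNAi had 10.6%. Within the arrays, Cavin3 stood between the 74.5 and 81.1 percentiles of probe sets in NF1 RNAi + U0126, between 63.2 and 76.3 in NF1 RNAi, and between 96.4 and 97.6 in Control RNAi. Its probe set was thus among the brightest in Control RNAi and still above the array median in the other groups.

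The log2 difference of Cavin3 was -3.30 ± 0.27 (SE) for NF1 RNAi minus Control RNAi, with a 95% interval of -3.91 to -2.69. Within replicate numbers 1, 2 and 3 it was -3.68, -2.94 and -3.28. Only 2 of the 14213 genes had a lower value in this comparison. The family was chosen by these log2 levels on the 9 arrays, so the values describe it and carry no p of their own. Leaving out any 1 array gave -3.53 to -2.97.

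The difference of Cavin3 was -2.80 ± 0.27 for NF1 RNAi + U0126 minus Control RNAi, with a 95% interval of -3.41 to -2.19. By replicate number it was -2.76, -2.57 and -3.07, and 36 genes had a lower value. Between NF1 RNAi + U0126 and NF1 RNAi the difference was 0.50 ± 0.27, with an interval of -0.11 to 1.11 that includes 0. It was 0.92, 0.36 and 0.21 for replicates 1, 2 and 3, so it was positive in 3 of 3 pairs, but the arrays of both groups overlap. The replicate 1 arrays, which had the lowest Cavin3 level in each group, weigh most in this value: without them it was 0.29. The mean intensity of Cavin3 in NF1 RNAi + U0126 was 136.1% of that in NF1 RNAi, still far below Control RNAi.

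**Figure D1:**
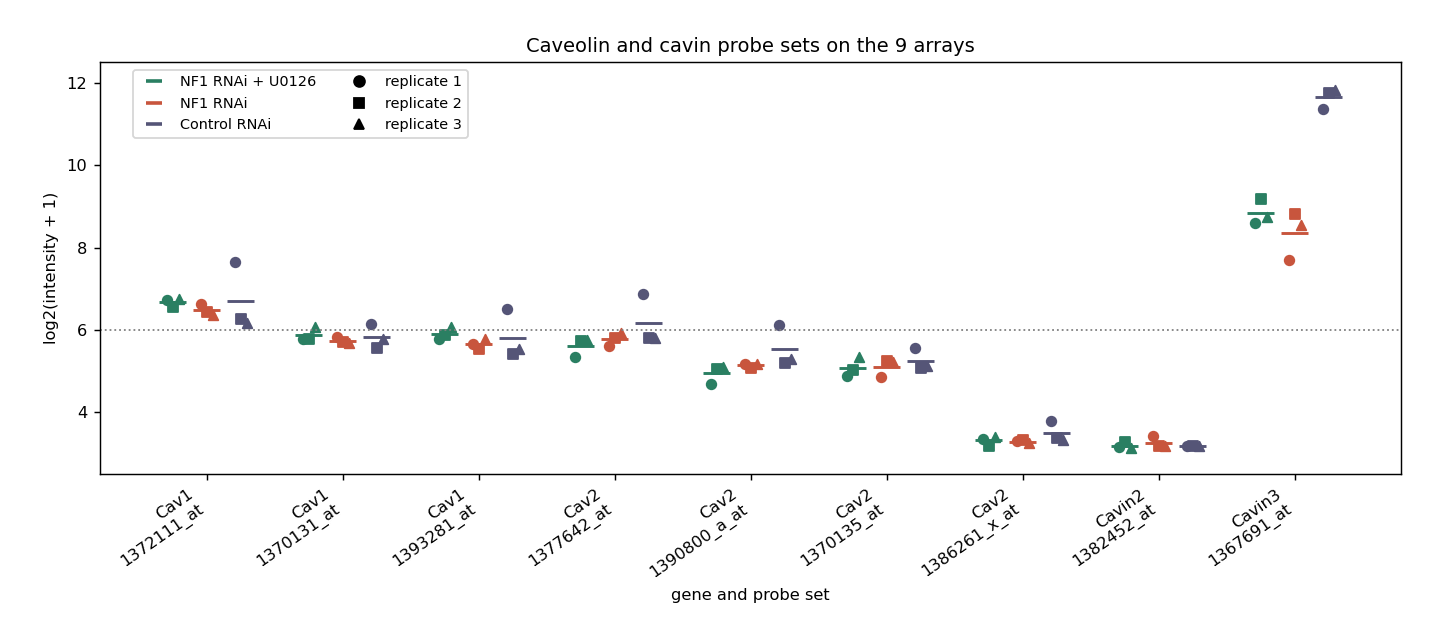
Log2 level (log2 of intensity + 1, vertical axis) of the 9 caveolin and cavin probe sets on every array; colours mark the groups, symbols the replicate numbers, horizontal bars the group means, and the dotted line a log2 level of 6. Cavin3 lay between 11.38 and 11.82 in Control RNAi and between 7.70 and 9.18 on the other 6 arrays, while Control RNAi replicate 1 was the highest Control RNAi array in all 7 Cav1 and Cav2 probe sets.

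Cav1 showed no separation of the groups in its brightest probe set, 1372111_at. Its log2 level was 6.74, 6.56 and 6.75 in NF1 RNAi + U0126, 6.64, 6.45 and 6.36 in NF1 RNAi, and 7.66, 6.27 and 6.18 in Control RNAi. The Control RNAi values span the whole range, because replicate 1 was the highest of the 9 arrays and replicates 2 and 3 were the lowest. The SD was 0.83 in Control RNAi, against 0.11 in NF1 RNAi + U0126 and 0.14 in NF1 RNAi.

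The log2 difference of Cav1 was -0.22 ± 0.33 for NF1 RNAi minus Control RNAi (95% interval -0.96 to 0.52), 0.20 ± 0.33 for NF1 RNAi + U0126 minus NF1 RNAi (-0.54 to 0.94) and -0.02 ± 0.33 for NF1 RNAi + U0126 minus Control RNAi (-0.76 to 0.72). All 3 intervals include 0 and are wide. Without Control RNAi replicate 1, the values turned to 0.26 for NF1 RNAi minus Control RNAi and 0.46 for NF1 RNAi + U0126 minus Control RNAi. The direction for Cav1 against Control RNAi thus depended on that array.

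The other Cav1 probe sets were dimmer and gave the same picture. Probe set 1370131_at had log2 levels of 5.79, 5.79 and 6.07 in NF1 RNAi + U0126, 5.83, 5.71 and 5.69 in NF1 RNAi, and 6.16, 5.56 and 5.79 in Control RNAi. Probe set 1393281_at had 5.79, 5.89 and 6.07 in NF1 RNAi + U0126, 5.67, 5.53 and 5.78 in NF1 RNAi, and 6.50, 5.41 and 5.53 in Control RNAi. In both, Control RNAi replicate 1 was again the highest of all arrays. In 1393281_at the NF1 RNAi + U0126 arrays lay just above the NF1 RNAi arrays, with 5.79 the lowest of one group and 5.78 the highest of the other, and the difference was 0.25 ± 0.24.

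Cav2 was lower on average in both groups with oligonucleotides against Nf1, by an amount that rested on the same array. In its brightest probe set, 1377642_at, the log2 level was 5.36, 5.74 and 5.77 in NF1 RNAi + U0126, 5.62, 5.80 and 5.94 in NF1 RNAi, and 6.87, 5.82 and 5.80 in Control RNAi. Apart from Control RNAi replicate 1, all 8 arrays were below 6. The difference was -0.38 ± 0.26 for NF1 RNAi minus Control RNAi (95% interval -0.97 to 0.22) and -0.54 ± 0.26 for NF1 RNAi + U0126 minus Control RNAi (-1.13 to 0.05). The NF1 RNAi + U0126 and Control RNAi arrays did not overlap, by the narrow margin between 5.77 and 5.80. Without Control RNAi replicate 1 the differences were -0.02 and -0.18, and without the replicate 1 arrays of all groups they were 0.06 and -0.05.

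NF1 RNAi + U0126 minus NF1 RNAi was -0.16 ± 0.26 in that Cav2 probe set, with an interval of -0.76 to 0.43. Probe set 1390800_a_at repeated the order of the groups, with log2 levels of 4.69, 5.05 and 5.11 in NF1 RNAi + U0126, 5.17, 5.08 and 5.17 in NF1 RNAi, and 6.12, 5.21 and 5.30 in Control RNAi. All its Control RNAi arrays were above all arrays of the other groups, and its difference was -0.59 ± 0.22 for NF1 RNAi + U0126 minus Control RNAi (95% interval -1.08 to -0.10) and -0.40 ± 0.22 for NF1 RNAi minus Control RNAi (-0.89 to 0.09). Without Control RNAi replicate 1 these values were -0.30 and -0.11. Probe sets 1370135_at and 1386261_x_at were dimmer, at log2 levels of 4.86 to 5.56 and 3.20 to 3.78 over the 9 arrays, and their 6 differences lay between -0.21 and 0.03. In each of these too, the highest of the 9 arrays was Control RNAi replicate 1.

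Cavin2 was at the floor of the arrays. Its log2 level was 3.16, 3.28 and 3.15 in NF1 RNAi + U0126, 3.42, 3.19 and 3.20 in NF1 RNAi, and 3.20, 3.18 and 3.20 in Control RNAi, which placed it between the 0.64 and 3.11 percentiles of probe sets. The differences were 0.08 ± 0.08 for NF1 RNAi minus Control RNAi, -0.08 ± 0.08 for NF1 RNAi + U0126 minus NF1 RNAi and 0.00 ± 0.08 for NF1 RNAi + U0126 minus Control RNAi. At such a signal a fall in Cavin2 RNA could not be detected, and the arrays showed no clear rise. Cav3, the muscle caveolin, was also dim, with log2 levels of 5.79 to 6.07 over the 9 arrays. It differed by 0.04, 0.06 and 0.10 in these comparisons (limma, adjusted p = 0.748, 0.636 and 0.300), and Cavin4, the muscle cavin, had no probe set.

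**Figure D2:**
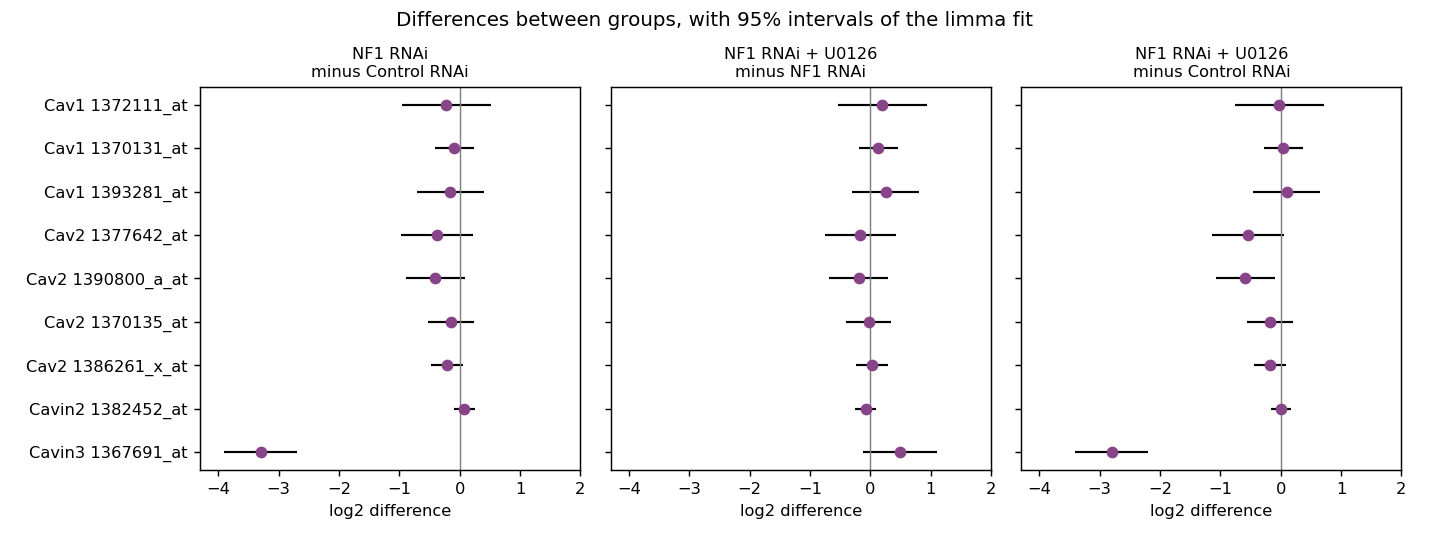
Log2 differences (horizontal axis) of the 9 caveolin and cavin probe sets in the 3 comparisons, with points for the difference of group means and lines for the 95% interval of the limma fit. Cavin3 stands at -3.30 and -2.80 against Control RNAi. The intervals of Cav1 and Cavin2 include 0 in every comparison, and so do those of Cav2 except 1390800_a_at in NF1 RNAi + U0126 minus Control RNAi. The intervals are not adjusted for the number of probe sets, and 1390800_a_at was not called there.

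With each gene represented by its brightest probe set, the limma fit over all genes (adjusted p under 0.05) called 1 of the 4 genes, Cavin3, in NF1 RNAi minus Control RNAi, where it called 26.3% of all genes, 13.0% as higher and 13.3% as lower. It called 1 of the 9 probe sets, against 20.4% of all probe sets. The arrays did not overlap for 1 of 4 genes, against 41.2% of all genes, and for 3 of 9 probe sets, against 35.3%. The median difference of the 4 genes was -0.30, and that of all genes 0.02. These values chose the family, so nothing is read from the counts.

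In NF1 RNAi + U0126 minus NF1 RNAi the same fit called 0 of the 4 genes, against 13.7% of all genes (6.71% higher, 7.02% lower), and 0 of the 9 probe sets, against 10.0%; at an unadjusted p under 0.05 the counts were also 0. The arrays did not overlap for 0 genes, against 33.9%, and for 1 probe set, 1393281_at of Cav1, against 28.6%. The median difference was 0.06, and 0.02 over all genes. In NF1 RNAi + U0126 minus Control RNAi, 1 of 4 genes was called, again Cavin3 and lower, against 35.5% of all genes (17.9% higher, 17.6% lower), and 1 of 9 probe sets, against 28.1%. The arrays did not overlap for 2 of 4 genes, Cav2 and Cavin3, against 47.2%, and for 3 of 9 probe sets, against 41.0%. The median difference was -0.28, and 0.04 over all genes. Without Control RNAi replicate 1 the count in this comparison was 2, with Cavin3 lower and Cav1 higher.

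**Figure D3:**
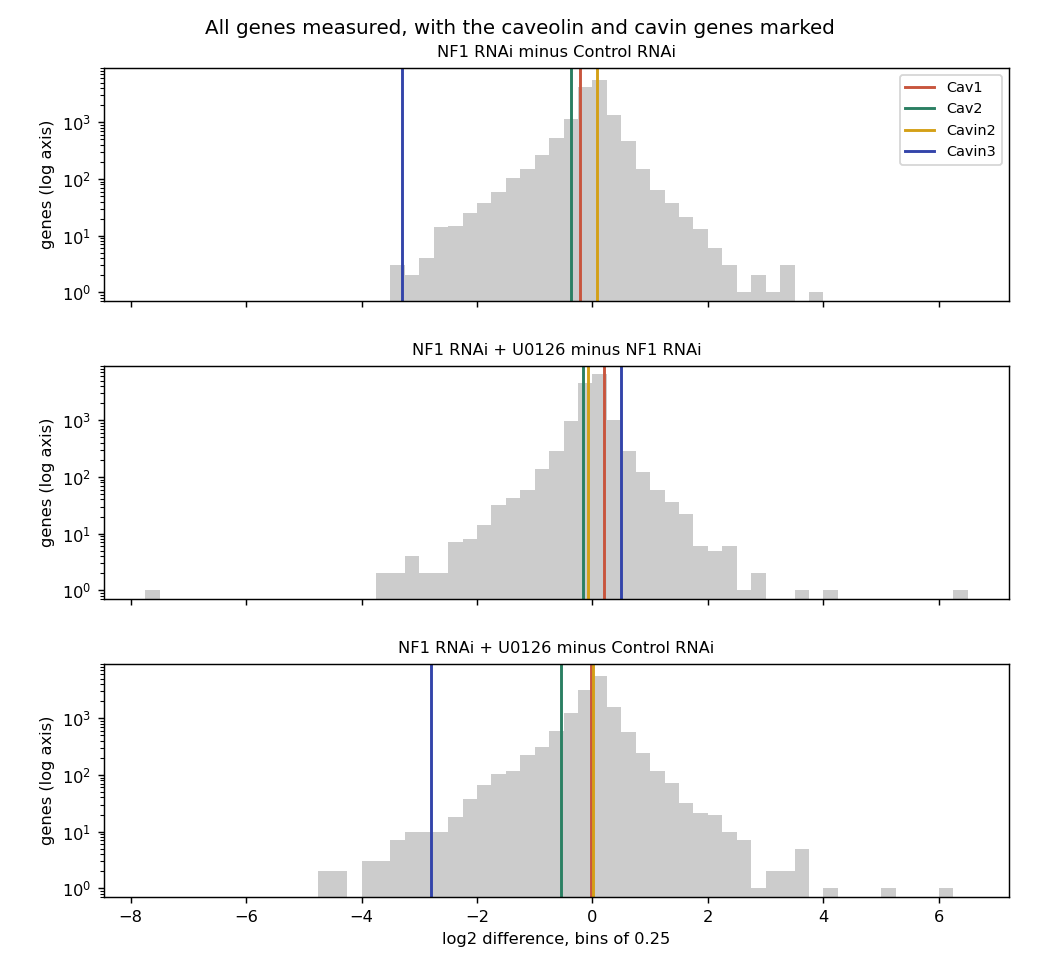
Numbers of genes (vertical axis, log scale) by log2 difference (horizontal axis, bins of 0.25) in each comparison, with lines at the values of Cav1, Cav2, Cavin2 and Cavin3. Cavin3 lies in the far lower tail of both comparisons with Control RNAi and at 0.50 in NF1 RNAi + U0126 minus NF1 RNAi, and the other members lie between -0.54 and 0.20, inside the bulk of the genes.

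The members did not share 1 profile. With each gene centred on its own mean over the 9 arrays, the root mean square distance was 0.31 log2 units between Cav1 and Cav2, against 1.52 between Cav1 and Cavin3 and 1.34 between Cav2 and Cavin3. Among 9905 other genes with a mean log2 level of at least 6, the profiles nearest to Cavin3 were those of Gfra2, a receptor for the neurotrophic factor neurturin, at 0.43, Bcl10, a signalling adaptor of the NF-kappaB pathway, at 0.45, and Anxa3, a calcium-dependent phospholipid-binding annexin, at 0.47. Their differences for NF1 RNAi minus Control RNAi were -2.31 ± 0.27, -2.30 ± 0.18 and -2.39 ± 0.16. The other Gfra2 probe set gave -1.73. The Anxa3 value rests on 1 of 4 probe sets, with a mean log2 level of 6.85. The others gave -0.20, -0.06 and -0.22, at mean levels of 4.57, 5.89 and 6.57, so the last was nearly as bright. For NF1 RNAi + U0126 minus NF1 RNAi the values of Gfra2, Bcl10 and Anxa3 were 0.26, -0.09 and 0.19.

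Nearest to Cav1 were Scrg1 at 0.14, Oxct1, a mitochondrial enzyme of ketone body use, at 0.15, and Tsku at 0.18. Nearest to Cav2 were Chn2, a GTPase-activating protein for Rac, at 0.12, Chtf18 at 0.15 and Dut, which hydrolyses dUTP, at 0.17. For Cavin2, whose signal was at the floor, Peli3, Zc3h7a and Htra2 were nearest at 0.03 to 0.04, distances that small because none of these profiles varied much. The distances share the groups and arrays on which they were computed and are given as a description.

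**Figure D4:**
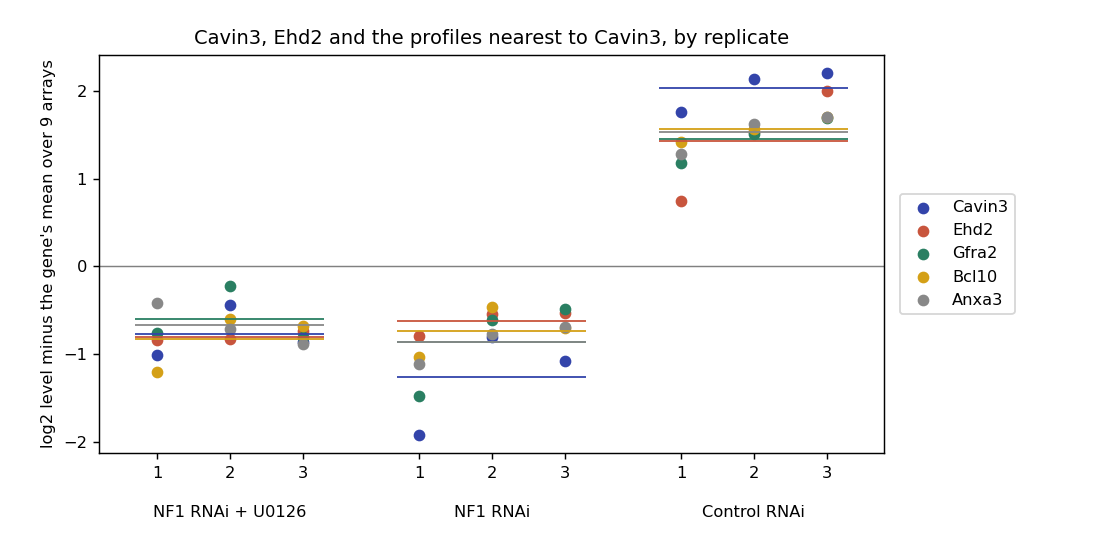
Log2 level minus the gene's own mean over 9 arrays (vertical axis) for Cavin3, Ehd2 and the 3 genes nearest to Cavin3, by replicate number within each group; lines mark the group means. In all 5 genes every Control RNAi array lies above 0 and every other array below it, and Cavin3 has the widest spread between groups.

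Transcripts of proteins that accompany or regulate the caveola changed in both directions in NF1 RNAi against Control RNAi. Of the 12 genes listed as caveola relatives and coat accessories, 10 were measured. Of these, 4 fell and 3 rose, against 13.3% and 13.0% of all genes, and the list's median difference was 0.08, against 0.02 over all genes. Ehd2, an ATPase that sits at the caveola neck and holds caveolae at the membrane, had the lowest value of the list and fell by 2.04 ± 0.26 (limma, adjusted p = 0.000607). Its log2 level lay between 5.99 and 6.09 on the NF1 RNAi + U0126 arrays, and was 6.04, 6.28 and 6.29 in NF1 RNAi, and 7.57, 8.35 and 8.82 in Control RNAi. All 6 arrays with oligonucleotides against Nf1 were at the border of dim signals, and all Control RNAi arrays were above them.

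Filamin A (Flna), an actin cross-linker that binds caveolin-1, fell by 1.09 ± 0.09 (adjusted p = 8.78e-05) to a log2 mean of 11.16 in NF1 RNAi, against 12.25 in Control RNAi. Pacsin3, a membrane-bending F-BAR protein, fell by 1.03 ± 0.19 (adjusted p = 0.0047), to a mean of 6.75 in NF1 RNAi against 7.79 in Control RNAi. Ehd1, a relative of Ehd2 in endosomal recycling, fell by 0.60 (adjusted p = 0.00102), and its dimmer probe set gave -0.26. The remaining called genes went the other way. Ehd3, a further relative, rose by 0.62 ± 0.14 (adjusted p = 0.00997), Pacsin2 rose by 0.57 (adjusted p = 0.0011), and dynamin 2 (Dnm2), a GTPase of membrane fission, rose by 0.19 (adjusted p = 0.0456). With the replicate number as a block 6 genes were called, 4 lower and 2 higher, and Dnm2 was not among them.

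Addition of U0126 to NF1 RNAi was accompanied by lower levels of 3 of the 10 accessory genes, against 7.02% of all genes, and none rose. Pacsin2 fell by 0.75 ± 0.08 (adjusted p = 0.000552), to a log2 mean of 11.49 in NF1 RNAi + U0126 against 12.24 in NF1 RNAi, and its other probe set gave -0.80. Ehd3 fell by 0.68 ± 0.14 (adjusted p = 0.0116) and Ehd4 by 0.40 ± 0.09 (adjusted p = 0.0156), while the other Ehd4 probe sets gave -0.60 and -0.58. Ehd2 differed by -0.18 in this comparison and did not pass the test. The Ehd3 call ended without NF1 RNAi replicate 2 (-0.63, adjusted p = 0.0539), which left 1 gene called, and the Ehd4 call without NF1 RNAi + U0126 replicate 2 or NF1 RNAi replicate 2 or 3 (adjusted p = 0.0546 to 0.0575). With the replicate number as a block, 5 genes were called, 1 higher and 4 lower, since Pacsin3 (0.48) and Flna (-0.25) then passed.

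Against Control RNAi, 4 of the 10 fell in NF1 RNAi + U0126, against 17.6% of all genes, and none rose. The total called was near the 35.5% of all genes called in either direction. Ehd2 fell by 2.22 ± 0.26 (adjusted p = 0.000206), Flna by 1.34 ± 0.09 (adjusted p = 1.49e-05), Ehd1 by 0.61 ± 0.08 (adjusted p = 0.00052) and Ehd4 by 0.27 ± 0.09 (adjusted p = 0.0338). The other Ehd4 probe sets gave -0.53 and -0.60, the mean of all its probe sets gave -0.47, and without Control RNAi replicate 1 the value was -0.17. The Ehd4 call ended without any 1 of the NF1 RNAi + U0126 arrays or NF1 RNAi replicate 2 (adjusted p = 0.0535 to 0.0855). Pacsin3, at -0.55 (adjusted p = 0.0538), missed the threshold and passed it with the replicate block.

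Kinases that phosphorylate caveolin-1 and proteins reported in caveolae were measured for all 14 genes listed. Of these, 3 rose and 1 fell in NF1 RNAi against Control RNAi, where 13.0% of all genes rose and 13.3% fell. The total called was near the 26.3% called over all genes. The insulin receptor (Insr) rose by 0.87 ± 0.13 (limma, adjusted p = 0.00172), and its dimmer probe set gave 0.55. Prkcd, the protein kinase C isoform bound by cavin-3, rose by 0.67 ± 0.14 (adjusted p = 0.00696), opposite in sign to the difference of Cavin3. The tyrosine kinase gene Abl1 fell by 0.55 ± 0.07 (adjusted p = 0.00089), and the cation channel gene Trpc1 rose by 0.36 ± 0.11 (adjusted p = 0.0343). The Trpc1 call ended without any 1 of the NF1 RNAi arrays, Control RNAi replicate 2 or NF1 RNAi + U0126 replicate 2 (adjusted p = 0.0518 to 0.107), and the value was 0.23 without Control RNAi replicate 1. With the replicate block, Fyn (0.26) was called too, which made 5 genes.

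With U0126, 4 of the 14 fell against NF1 RNAi, against 7.02% of all genes, and none rose. Fyn, a Src family kinase of caveolin-1, fell by 1.23 ± 0.09 (adjusted p = 0.000102), to a log2 mean of 9.87 in NF1 RNAi + U0126 against 11.10 in NF1 RNAi, and its other probe set gave -1.14. Prkca fell by 0.81 ± 0.18 (adjusted p = 0.0205), Insr by 0.49 ± 0.13 (adjusted p = 0.042) and Src by 0.46 ± 0.07 (adjusted p = 0.00419), while the other Src probe sets gave -0.38, -0.40 and -0.10 and the other Insr probe set -0.24. The Prkca call ended without NF1 RNAi + U0126 replicate 1 or 2 or NF1 RNAi replicate 2 or 3 (adjusted p = 0.0521 to 0.0826). The Insr call ended without NF1 RNAi + U0126 replicate 2 or 3, NF1 RNAi replicate 1 or 2, or Control RNAi replicate 2 or 3 (adjusted p = 0.0529 to 0.143). Without either replicate 2 array of these groups, 2 genes were called.

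Against Control RNAi, 2 of the 14 rose and 3 fell in NF1 RNAi + U0126, where 17.9% of all genes rose and 17.6% fell. Their total was near the 35.5% called over all genes. With the replicate block 7 were called, since Insr (0.38) and Prkca (-0.53) then passed. Prkcd rose by 0.77 ± 0.14 (adjusted p = 0.00235), while Fyn fell by 0.97 ± 0.09 (adjusted p = 7.11e-05), Abl1 by 0.69 ± 0.07 (adjusted p = 0.000146) and Src by 0.63 ± 0.07 (adjusted p = 0.000244). The other Src probe sets gave -0.44, -0.50 and -0.15, and the other Fyn probe set -0.70. The median differences of this list were near those of all genes in all comparisons, at 0.00, -0.05 and -0.04, against 0.02, 0.02 and 0.04.

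Flotillins, stomatins and prohibitins form other membrane scaffolds that do not need caveolins. In NF1 RNAi minus Control RNAi, 5 of the 8 measured genes fell, against 13.3% of all genes, and none rose, with a list median of -0.45. Stom, the stomatin gene, fell by 1.50 ± 0.11 (limma, adjusted p = 5.74e-05), to a log2 mean of 5.92 in NF1 RNAi against 7.42 in Control RNAi. Erlin2, an endoplasmic reticulum relative, fell by 1.10 ± 0.13 (adjusted p = 0.000413), Flot2 by 0.62 ± 0.15 (adjusted p = 0.0156) and Flot1 by 0.48 ± 0.12 (adjusted p = 0.0209). Without Control RNAi replicate 2 the list's count was 3, and Flot2 was not called (-0.57, adjusted p = 0.0546). The Flot1 call ended without that array, Control RNAi replicate 3 or NF1 RNAi replicate 1 or 3 (adjusted p = 0.0648 to 0.0686).

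With U0126, Stom rose by 0.62 ± 0.11 against NF1 RNAi (adjusted p = 0.00705), to a mean of 6.54 in NF1 RNAi + U0126, and was the only gene of this list called. With the replicate block 4 were called, 1 higher and 3 lower, among them Flot1 (-0.32) and Flot2 (-0.27), and without NF1 RNAi + U0126 replicate 1 or NF1 RNAi replicate 2 the count was 2. In NF1 RNAi + U0126 against Control RNAi, 6 of 8 fell, against 17.6% of all genes, and none rose. Flot2 fell by 0.89 ± 0.15 (adjusted p = 0.00174), Stom by 0.88 ± 0.11 (adjusted p = 0.00037), Flot1 by 0.80 ± 0.12 (adjusted p = 0.00114) and Erlin2 by 0.73 ± 0.13 (adjusted p = 0.00206), and the list median was -0.64.

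The clathrin pathway, the other main coat of endocytosis, moved both ways. In NF1 RNAi minus Control RNAi, 6 of 18 measured genes rose and 6 fell, against 13.0% and 13.3% of all genes. Amph, encoding amphiphysin, a membrane-curvature protein, rose by 1.87 ± 0.24 (limma, adjusted p = 0.000665), and Dab2, a cargo adaptor, rose by 1.37 ± 0.34 (adjusted p = 0.0159). The adaptor genes Eps15 and Epn2 fell by 0.61 ± 0.07 (adjusted p = 0.000383) and 0.51 ± 0.09 (adjusted p = 0.00394), and their other probe sets gave -0.47 and -0.28 for Eps15 and -0.30 and -0.58 for Epn2. The Dab2 call ended without NF1 RNAi replicate 1 or Control RNAi replicate 2 (adjusted p = 0.0505 to 0.0519).

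With U0126, 3 of the 18 were lower than in NF1 RNAi and none was higher, a total near the 13.7% called over all genes. They were Amph, at -1.13 ± 0.24 (adjusted p = 0.0145), Epn2, at -0.70 ± 0.09 (adjusted p = 0.00163), and Sgip1, an endophilin partner, at -0.61 ± 0.13 (adjusted p = 0.0147). Sgip1 was dim, at log2 levels of 3.95 to 4.91 on all 9 arrays, so the size of its difference is uncertain, and with a pseudocount of 16 it was -0.36. The other Epn2 probe sets gave -0.67 and -1.28. Without NF1 RNAi replicate 2 the count was 1. The Amph call also ended without NF1 RNAi replicate 3 (adjusted p = 0.0527 to 0.0609 for both arrays), and the Sgip1 call without NF1 RNAi + U0126 replicate 2 or 3 or NF1 RNAi replicate 2 (adjusted p = 0.0538 to 0.0647). In NF1 RNAi + U0126 against Control RNAi, 3 rose and 7 fell, against 17.9% and 17.6% of all genes. Epn2 fell by 1.21 ± 0.09 (adjusted p = 2.53e-05) and Eps15 by 0.64 ± 0.07 (adjusted p = 0.000155). Their other probe sets gave -0.97 and -1.86 for Epn2 and -0.44 and -0.08 for Eps15. In the same comparison Dab2 rose by 1.11 ± 0.34 (adjusted p = 0.0296) and Amph by 0.74 ± 0.24 (adjusted p = 0.038). The Dab2 call there ended without NF1 RNAi + U0126 replicate 1 or Control RNAi replicate 2 or 3 (adjusted p = 0.075 to 0.0866). The Amph call ended without NF1 RNAi + U0126 replicate 2 or 3, NF1 RNAi replicate 2 or Control RNAi replicate 1 or 2 (adjusted p = 0.0571 to 0.124).

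**Figure D5:**
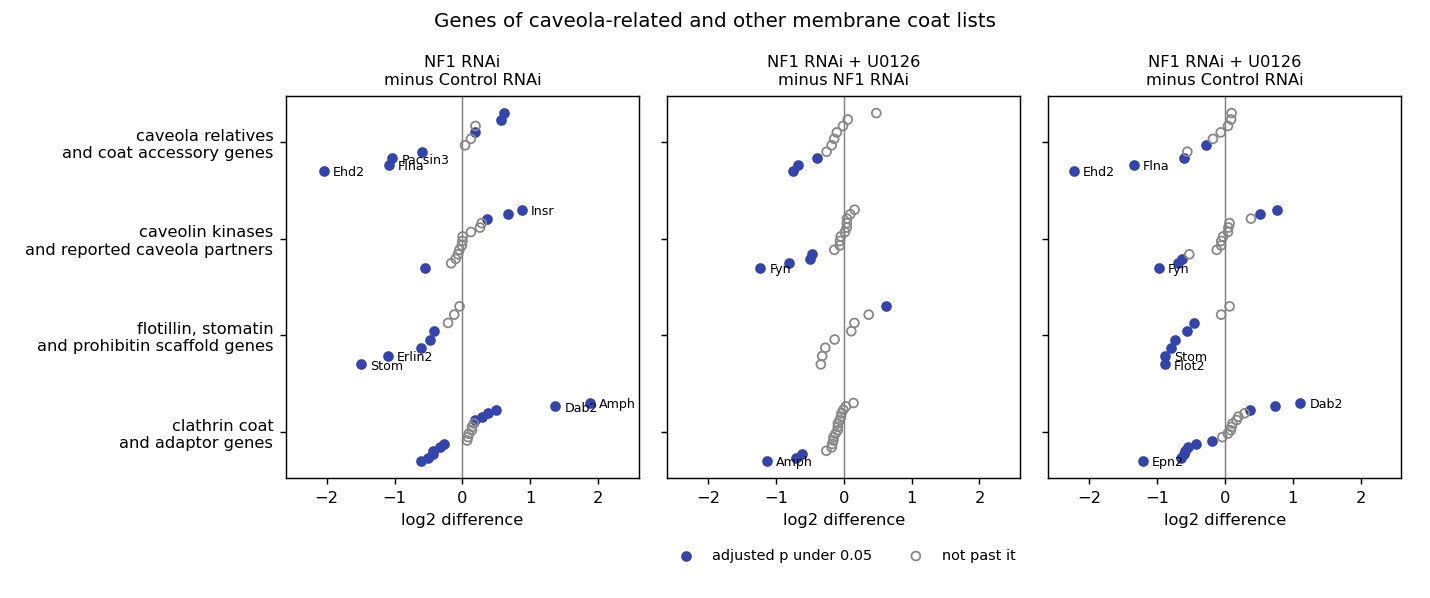
Log2 differences (horizontal axis) of every measured gene of the 4 lists (rows) in the 3 comparisons; filled points passed an adjusted p under 0.05 in limma, open points did not. Ehd2 and Flna are the lowest caveola accessory genes in both comparisons with Control RNAi, and the called flotillin, stomatin and prohibitin genes all lie below 0 there.

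Some genes that mark other cell types with many caveolae were also lower in NF1 RNAi than in Control RNAi, though the markers called, 2 of 9 mural and 3 of 10 fibroblast genes, came to a share near the 26.3% called over all genes. In bulk cultures, fewer cells of a type and less RNA per cell cannot be told apart. Of 9 mural and smooth muscle markers, 2 fell in NF1 RNAi against Control RNAi: Tagln, at -2.63 (limma, adjusted p = 0.00168), and Acta2, at -0.52 (adjusted p = 0.0456). Tagln, which encodes an actin-binding protein, had log2 levels of 9.64, 8.80 and 8.39 in NF1 RNAi + U0126, 9.56, 9.05 and 8.44 in NF1 RNAi, and 12.28, 11.51 and 11.14 in Control RNAi. Among the Control RNAi arrays, replicate 1 was highest for Tagln and Acta2 and for the fibroblast markers Col3a1 and Ogn, as for Cav1 and Cav2. It was lowest for the fibroblast markers Mfap5, Col1a1 and Col1a2, as for Cavin3. Replicates 1, 2 and 3 were at 13.90, 13.96 and 14.07 for Col1a1 and at 13.95, 13.96 and 14.01 for Col1a2. Whether these orders are linked was not tested. The summed intensity of the list was 841.8 to 1423 in NF1 RNAi + U0126, 874.5 to 1311 in NF1 RNAi and 2804 to 5696 in Control RNAi. Tagln was its brightest gene on every array and weighs most in this sum, and 5 of its genes were below a log2 level of 6 on all arrays. None was called in NF1 RNAi + U0126 against NF1 RNAi (0 at an unadjusted p under 0.05), where 13.7% of all genes were called. Tagln alone was called against Control RNAi, where 35.5% of all genes were, and it fell by 2.70 (limma, adjusted p = 0.000845).

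Of 10 fibroblast markers, Col3a1 fell by 2.06 (adjusted p = 0.00346) and Mfap5 fell by 1.83 (adjusted p = 0.00052) in NF1 RNAi against Control RNAi, while Ogn rose by 0.68 (adjusted p = 0.0171). The summed intensity of the 10 was 23070 to 31010 in NF1 RNAi + U0126, 30460 to 31580 in NF1 RNAi and 37190 to 39190 in Control RNAi. Col1a1 and Col1a2, each at a log2 mean of 13.98 in Control RNAi, were the brightest and weigh most in this sum. Neither was called in NF1 RNAi against Control RNAi (-0.21 and -0.10, limma, adjusted p = 0.223 and 0.449), and their other probe sets gave -0.65 and -0.26. Dcn, Lum, Pdgfra and Fap were below a log2 level of 6 on all arrays. In NF1 RNAi + U0126, 1 of the 10 fibroblast markers rose and 1 fell against NF1 RNAi, where 6.71% of all genes rose and 7.02% fell. Against Control RNAi 1 rose and 4 fell, where 17.9% of all genes rose and 17.6% fell. Of 7 Schwann cell markers measured, 1 rose and 1 fell in NF1 RNAi against Control RNAi, where 13.0% of all genes rose and 13.3% fell. In NF1 RNAi + U0126, 5 fell against NF1 RNAi, where 7.02% of all genes fell, and none rose. Against Control RNAi, 1 rose and 4 fell in NF1 RNAi + U0126, where 17.9% of all genes rose and 17.6% fell. The summed intensity of these 7 Schwann cell markers was 25990 to 26550 in NF1 RNAi + U0126, 29310 to 29800 in NF1 RNAi and 18370 to 23650 in Control RNAi. S100b, the 1 marker that rose against Control RNAi, and Ngfr were the brightest and weigh most in this sum. In NF1 RNAi + U0126 the sum was above that of Control RNAi although 4 of the 7 markers fell. The part of these marker differences in the Cavin3 and Ehd2 results was not tested.

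Endothelial and adipocyte markers, which stand for the other caveola-rich cell types, were low, and their summed ranges in the groups overlapped. None of 9 endothelial markers was called in any comparison (0, 1 and 1 at an unadjusted p under 0.05, limma). Over all genes, 26.3% were called in NF1 RNAi minus Control RNAi, 13.7% in NF1 RNAi + U0126 minus NF1 RNAi and 35.5% in NF1 RNAi + U0126 minus Control RNAi. Of the endothelial markers, 8 were below a log2 level of 6 on all arrays. Their summed intensity was 378 to 410.3 in NF1 RNAi + U0126, 359.8 to 392.1 in NF1 RNAi and 347.9 to 396.3 in Control RNAi. Of 6 adipocyte markers, 5 were below that level on all arrays, and the 1 call was Cidec, which rose by 0.52 in NF1 RNAi + U0126 against Control RNAi (adjusted p = 0.00512). Their summed intensity was 304.9 to 378.7 in NF1 RNAi + U0126, 321.6 to 348.9 in NF1 RNAi and 297.3 to 330.2 in Control RNAi. Of 8 macrophage markers, 5 were below it, with a summed intensity of 403.2 to 455.7 in NF1 RNAi + U0126, 358 to 364 in NF1 RNAi and 319.7 to 360.1 in Control RNAi. Cd68 rose by 0.90 in NF1 RNAi + U0126 against NF1 RNAi (adjusted p = 0.00147) and by 1.07 against Control RNAi (adjusted p = 0.000167), and no other macrophage marker was called.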

How the data were processed

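The deposited series table holds linear probe-set intensities of 9 Affymetrix arrays of total RNA; per the submitters' processing notes they were made by RMA, which the authors ran before they deposited the intensity values. Version, chip definition and build: not given in the sources used here. The table lists 31099 probe sets, of which 57 controls were left out. The platform annotation named 1 gene for 20826 probe sets, several for 436 and none for 9780. Symbols were updated through RefSeq gene tables, mostly by gene ID (20758), and 4 were kept as given. Intensities ran from 5.62 to 25800.2 and were used as log2(intensity + 1) values computed here from the deposited intensities.

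The 3 groups were taken from the labels and fitted together as group means over 9 arrays with limma 3.58.1 in R 4.3.3 (lmFit, eBayes, 6 residual degrees of freedom), with Benjamini-Hochberg adjustment over 14213 genes and, in a second fit, over 31042 probe sets. For a gene with several probe sets the brightest, by mean log2 level over the 9 arrays, was used. A call is an adjusted p under 0.05. The number of arrays limits the precision. The script was tested on simulated data.

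The replicate numbers come from the sample titles. Deviations from the group means correlated over 0.1 in all 9 pairs of arrays with the same number (r = 0.167 to 0.619). In 18 pairs with different numbers r was -0.516 to 0.402. Arrays numbered 1 correlated with each other at 0.371 to 0.619. Pairing of replicates 2 and 3 was not clear: arrays numbered 2 gave 0.167 to 0.244 with each other and 0.14 to 0.402 with arrays numbered 3. The main fit did not use the replicate number, so its SE, intervals and adjusted p are unpaired, and the replicate block was an alternative. Alternatives covered the replicate block, filters, scaling, variance models, array weights, probe-set averages, pseudocounts, thresholds and left-out arrays.

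The family, the gene lists and the marker lists were chosen with earlier results of these data known. Named genes are the family, Nf1, Cav3, up to 4 called genes of each list and comparison with the largest fold change, and the 3 nearest profiles of each member; Ehd1, Pacsin2 and Dnm2 in NF1 RNAi minus Control RNAi, genes whose call an alternative changed, and the marker genes were named after their values were seen.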

Additional observations from a re-analysis of the deposited data

How the results depend on the processing

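Over 20 alternatives the difference of Cavin3 from Control RNAi was -2.97 to -2.68 in NF1 RNAi + U0126 and -3.53 to -2.97 in NF1 RNAi, and that between NF1 RNAi + U0126 and NF1 RNAi was 0.17 to 0.73; the family was chosen by these levels, so the ranges are a description. Counts of caveolin and cavin genes called with 1 array left out were 1 to 1 in NF1 RNAi minus Control RNAi, 0 to 0 in NF1 RNAi + U0126 minus NF1 RNAi and 1 to 2 in NF1 RNAi + U0126 minus Control RNAi, where 2 were also called without all replicate 1 arrays. In list order (caveola relatives, kinases and partners, flotillins and stomatins, clathrin), counts with 1 array left out were 6 to 7, 3 to 5, 3 to 5 and 8 to 12 in the first comparison, 1 to 4, 2 to 4, 1 to 2 and 1 to 3 in the second, and 3 to 5, 5 to 7, 6 to 6 and 7 to 10 in the last. A 2-fold limit left 3, 0, 2 and 2 genes in the first, 0, 1, 0 and 1 in the second and 2, 0, 0 and 2 in the last, fewer by construction. An adjusted p under 0.01 left 3 flotillin and 7 clathrin genes in the first comparison, 1 caveola relative, 2 partners and 1 clathrin gene in the second, and 6 clathrin genes in the last. In the second comparison the replicate block gave 5 caveola relatives and 4 flotillins and stomatins, array weights gave 6 and 2, and leaving out all replicate 1 arrays gave 5 and 2; the cause was not tested. The block moved no other of these counts by over 1.5 times. No called value changed sign, while uncalled differences of Cav1 and Cav2 from Control RNAi did, as given above. The dim Cav2 and Cavin2 signals limit what can be seen, and 3 arrays a group leave wide intervals for Cav1 and Cav2.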
